A study of Mus musculus with 20 samples.

Results

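The libraries described here are the untreated ones of a mouse time course that the labels give as spleen, late against early: 12, 24 and 48 h against 15 min, 30 min and 1 h. They were picked by their labels of treatment and time, as 6 of the 20 libraries of the series, 3 on each side. The comparison and the gene lists were chosen with earlier results of these data known. The series set a cocktail of LPS, IL4 and TGFb, against no treatment, with 1 mouse in each arm per the design text. It sampled both arms at 10 times from 0 min to 48 h, 1 poly-A library per arm and time, and the untreated samples received none of the 3 agents. The labels state neither the strain, age or sex of the mice nor how the cells were kept between times. With 1 untreated source, the 3 times of a side stand in for replicates, and its p-values say nothing of how animals differ.

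B lymphocytes that divide must copy their DNA, build membrane and replace protein, so genes of the cell cycle, sterol synthesis, glycolysis and the proteasome commonly move together with growth. Sterol genes are switched on by SREBP proteins, whose escort SCAP senses the cholesterol content of membranes. Immediate early genes such as Fos and Nr4a1 are short-lived transcripts that respond within minutes to receptor signals or handling, and FoxO proteins drive genes of resting lymphocytes when growth signals are low. ATF4 drives genes of amino acid supply when the cell senses a shortage.

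Totals ran from 46684545 to 59048174 counts in the 6 libraries, so that 3 counts, taken as the floor of detection, correspond to between 0.0508 and 0.0643 CPM (a count divided by its library's scaled total). The floor covers counting error only. B cell genes were high at every time: Cd79a, a signalling chain of the B cell receptor, had 245, 228 and 215 CPM at 12, 24 and 48 h, against 306, 291 and 310.3 CPM at 15 min, 30 min and 1 h. The proliferation marker Mki67 was already at 791 to 842 CPM in the first hour. Spleen is a mixed tissue, but many markers of its other cells were absent or near 0 here. Neutrophil genes summed to at most 0.399 CPM and erythroid genes to at most 1.94 CPM in the 6 libraries. The macrophage gene Emr1 and the platelet gene Itgb3 were among the markers detected, and which cells they came from was not tested. Cd2, Trat1 and Themis (T cells), C1qa, C1qb, C1qc and Lyz1 (macrophages), S100a8 and S100a9 (neutrophils), Hbb-bs (erythroid cells) and Pdgfra and Col1a2 (stroma) had 0 counts in all 6. The class II genes H2-Aa and H2-Ab1 and the class I gene H2-K1 were also at or below 0.045 CPM, while Cd74, the class II invariant chain, had 1687 to 2368 CPM, so a level near 0 is given here only as what the table lists. CPM are not divided by gene length, and levels are compared only between libraries.

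In a principal component analysis of the 10 untreated libraries, the first component held 60.3% of the variance and separated the libraries up to 1 h from those at 6 to 24 h. The 48 h library stood apart: it lay at 13.9 on that component, against 40.0 at 12 h and 48.2 at 24 h, and lowest of all on the second component. List counts that move by over 1.5 times without it are given with and without it. Each side held 2 libraries of sequencing lane 1 and 1 of lane 3, which were 30 min and 48 h. Among the late libraries, what sets 48 h apart therefore cannot be told apart from lane, here and below.

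**Figure D1:**
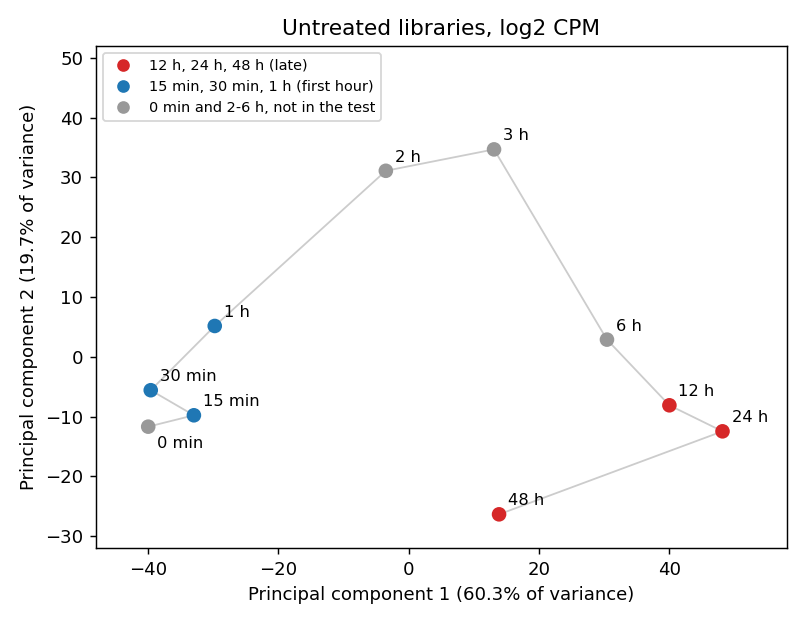
First and second principal components of log2 CPM for the 10 untreated libraries, with the percent of variance on each axis and a line joining them in order of time. The 3 first-hour libraries lie at the left, between -39.6 and -29.7, 12 h and 24 h at the far right, and 48 h between the sides at 13.9.

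Of 11596 genes tested, 2781 (24.0%) were higher and 2818 (24.3%) lower at 12 to 48 h than in the first hour, in edgeR's quasi-likelihood test at a Benjamini-Hochberg adjusted p below 0.05. With 48.3% of genes past the test, a list in which about 1 in 4 members moves each way is near the background. Changes past the test and over 2-fold were fewer: 1057 genes (9.12%), 346 higher and 711 lower. The median log2 fold change over all genes tested was -0.02. With library totals as the only scaling, 2151 genes were higher and 3402 lower, which lowers the share of higher calls to 38.7% from 49.7%, and moves the median of all genes by -0.10. In 59.8% of genes the 3 late and the 3 early libraries did not overlap, and 47.4% both passed and did not overlap. Genes named below for the largest changes had to show no overlap, so its absence adds no support for them. Of the 5599 genes that passed, 5493 did not overlap, so for list members that passed a lack of overlap adds little. Without the 48 h library 7112 of 11498 genes passed (61.9%), without 15 min 3704, and without 30 min 3134. In bulk RNA, fewer cells of a type and less RNA per cell cannot be told apart, here and below.

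Over the genes called, the median change grew from 2 h to 24 h and was smaller at 48 h. Their first-hour and late values had entered the test, and single lists took other courses, given below. Relative to the first-hour mean, the median of the genes called higher was 0.21 at 2 h, 0.32 at 3 h, 0.49 at 6 h, 0.58 at 12 h, 0.63 at 24 h and 0.42 at 48 h (log2 ratios). For the genes called lower it was -0.19, -0.36, -0.55, -0.63, -0.73 and -0.51 at the same times. The 48 h library had moved least of the 3 late ones for 63.4% of the higher and 55.5% of the lower genes. The 0 min library, which the test did not use, lay nearer the late mean than the first-hour mean for 54 of the 2781 higher and 144 of the 2818 lower genes.

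Cholesterol synthesis held the highest list median. Of 24 tested members of cholesterol synthesis and uptake, 23 rose and 0 fell, with a median log2 fold change of 1.47. Of the 12 genes named as the largest rises among those above 5 CPM, 6 belong to this pathway, among them Fdps, Idi1, Lss, Acat2 and Hmgcs1. These catalyse steps from acetyl-CoA (Acat2, Hmgcs1) over the isoprenoids (Idi1, Fdps) to lanosterol (Lss).

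Fdps, farnesyl diphosphate synthase (chr3:89093588-89101959, minus strand), had 97.6, 186 and 161 CPM at 12, 24 and 48 h, against 37.5, 23.4 and 31.2 CPM at 15 min, 30 min and 1 h. Its log2 fold change was 2.27 ± 0.26 (SE; edgeR adjusted p = 0.000999). Hmgcs1, HMG-CoA synthase (chr13:119690379-119708260, plus strand), had 258, 798 and 419 CPM late, against 161, 96.7 and 142 CPM in the first hour. In both genes 24 h was the highest, and every late library lay above every early one, which the rule that named them requires. The log2 fold change of Hmgcs1 was 1.88 ± 0.39 (SE; edgeR adjusted p = 0.00625). Msmo1, the sterol C4-methyl oxidase, had 70.5, 250.4 and 153 CPM late, against 59.0, 37.7 and 52.8 CPM early (log2 fold change 1.66 ± 0.41 SE, edgeR adjusted p = 0.0124). It lost its call without 30 min (adjusted p = 0.0618) and without 48 h (adjusted p = 0.0626), with lane as a term (adjusted p = 0.0651) and in lane 1 alone (adjusted p = 0.213), all by edgeR. Hmgcs1 also lost its call in lane 1 alone (edgeR adjusted p = 0.136).

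Insig1, which holds SREBP in the endoplasmic reticulum, was the member that did not pass: it had 58.2, 254 and 164 CPM late, against 71.5, 63.3 and 88.4 CPM early, with 12 h below all early libraries. The whole list followed that order, with medians of 0.73 at 12 h, 1.99 at 24 h and 1.45 at 48 h relative to the first hour, after 1.33 at 6 h. In lane 1 alone (12 and 24 h against 15 min and 1 h), 12 of the members passed. Why fewer passed there was not tested. Among 12 tested genes of fatty acid synthesis 9 rose and 0 fell (1 without 48 h), with a median of 0.81. Fads2, the delta-6 desaturase of polyunsaturated fatty acids, had 31.6, 46.9 and 55.4 CPM late, against 11.7, 7.43 and 9.09 CPM early, a log2 fold change of 2.24 ± 0.24 (SE; edgeR adjusted p = 0.000897). Srebf1, the SREBP of fatty acid genes, had 106, 140 and 147 CPM late, against 60.4, 60.6 and 65.9 CPM early. Scd2, a stearoyl-CoA desaturase, had 583, 1306 and 1783 CPM late, against 582, 479 and 592 CPM early, overlapping at 12 h, and passed (edgeR adjusted p = 0.027) but lost its call without 15 min, 30 min, 1 h, 24 h or 48 h, at adjusted p from 0.0713 to 0.127. With lane as a term its adjusted p was 0.112 and in lane 1 alone 0.34, both by edgeR.

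Mitosis genes rose almost without exception. Of 36 tested members, 35 rose and 0 fell, with a median of 0.80. Plk1, the kinase that drives entry into and passage through mitosis (chr7:122159439-122169873, plus strand), had 157, 169 and 130.2 CPM late, against 62.1, 46.2 and 52.1 CPM early, a log2 fold change of 1.5 ± 0.14 (SE; edgeR adjusted p = 0.000649). Cdc20, the activator of the anaphase-promoting complex, had 213, 216 and 161 CPM late, against 91.4, 72.3 and 72.9 CPM early. Kif2c, a microtubule-depolymerising kinesin, had 100.4, 81.9 and 85.5 CPM late, against 40.2, 36.0 and 33.7 CPM early. Late and early libraries did not overlap in any of the 3, like nearly all genes that passed. The member that did not pass was Foxm1, a transcription factor of mitotic genes, with 91.4, 80.3 and 91.8 CPM late, against 85.5, 87.3 and 90.9 CPM early. The list's median lay at -0.22 at 2 h and -0.10 at 3 h, and at 0.71 at 6 h, 0.80 at 12 h, 0.79 at 24 h and 0.80 at 48 h. Its count held at 34 or 35 when any 1 library was left out.

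Sequences are shown for a pair of sterol and a pair of mitosis genes, because windows around the starts of many genes of both lists share short motifs. They were chosen after the windows were seen and hold the most motifs of their list among the named genes searched. Idi1 holds 2 CCAAT boxes, Lss 1 and Acat2 0, and Kif2c holds 0 CCAAT boxes and 1 cell cycle homology region. The windows are 300 bases, 250 before to 50 after the annotated start, from RefSeq on GRCm38.p6, and both strands were searched, with overlaps between motifs allowed. The letters CCAAT, the box bound by NF-Y, were found in 80.0% of 20 cholesterol windows (17 of 24 genes matched) and in 78.1% of 32 mitosis windows (29 of 36 genes matched), against 37.9% of the 11337 windows of all genes tested. The letters TTTGAA, the cell cycle homology region (CHR), were found in 75.0% of the mitosis windows and 5.0% of the cholesterol windows, against 12.4% for all genes tested. The letters TCACNCCAC, a form of the sterol response element that was searched after the values were seen, stood in 1 of the 20 cholesterol windows, that of Hmgcs1, and in 1.19% of all. These are matches of letters and were not tested as binding sites. Capitals mark CCAAT or its reverse complement ATTGG, the sterol response element TCACCCCAC in Hmgcs1, and TTTGAA in Plk1 and Cdc20. The windows are chr13:119690101-119690400 (plus strand) for Hmgcs1, chr8:64733529-64733828 (minus strand) for Msmo1, chr7:122159185-122159484 (plus strand) for Plk1 and chr4:118437294-118437593 (minus strand) for Cdc20, each printed 5′ to 3′ on the strand of its gene.
Hmgcs1: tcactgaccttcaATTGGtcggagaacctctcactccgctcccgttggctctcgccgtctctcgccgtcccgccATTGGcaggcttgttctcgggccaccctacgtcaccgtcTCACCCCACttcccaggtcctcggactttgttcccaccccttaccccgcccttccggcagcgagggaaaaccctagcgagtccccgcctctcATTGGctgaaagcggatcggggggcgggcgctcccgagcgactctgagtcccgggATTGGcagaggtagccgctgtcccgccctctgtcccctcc
Msmo1: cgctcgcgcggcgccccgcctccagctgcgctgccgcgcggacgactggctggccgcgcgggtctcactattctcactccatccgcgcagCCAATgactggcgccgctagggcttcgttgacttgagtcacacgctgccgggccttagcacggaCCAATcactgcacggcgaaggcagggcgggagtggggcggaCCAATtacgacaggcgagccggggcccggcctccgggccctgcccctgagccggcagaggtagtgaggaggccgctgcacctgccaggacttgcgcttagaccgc
Plk1: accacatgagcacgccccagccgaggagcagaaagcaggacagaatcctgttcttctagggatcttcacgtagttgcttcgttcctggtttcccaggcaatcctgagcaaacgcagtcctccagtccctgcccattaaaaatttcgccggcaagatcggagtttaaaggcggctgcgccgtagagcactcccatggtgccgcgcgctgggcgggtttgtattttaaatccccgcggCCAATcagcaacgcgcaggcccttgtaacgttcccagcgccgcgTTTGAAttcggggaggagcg
Cdc20: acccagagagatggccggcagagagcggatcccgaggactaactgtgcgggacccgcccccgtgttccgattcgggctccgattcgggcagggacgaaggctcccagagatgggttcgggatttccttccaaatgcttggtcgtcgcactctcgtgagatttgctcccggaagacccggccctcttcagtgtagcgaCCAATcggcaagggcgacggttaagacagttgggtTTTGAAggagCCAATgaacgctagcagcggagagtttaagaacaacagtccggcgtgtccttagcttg

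Hmgcs1 and Msmo1 hold 4 and 3 CCAAT boxes. Plk1 and Cdc20 hold 1 CHR each, with 1 and 2 CCAAT boxes. Over all genes called, CCAAT stood in 44.2% of the windows of higher genes and 33.9% of those of lower genes.

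Genes of DNA replication rose as well, 32 of 42 tested with a median of 0.49, and 1 fell, the transcription factor E2f2 (39.1 to 42.0 CPM late, against 49.2 to 51.4 CPM early), a call that was lost without 15 min or 30 min. Uhrf1, which maintains DNA methylation at replication forks, had 482, 505 and 406 CPM late, against 208, 195 and 243 CPM early. Rrm1, the large subunit of ribonucleotide reductase, had 501, 542 and 428 CPM late, against 253, 218 and 251 CPM early. The libraries did not overlap in either gene, like nearly all genes that passed. Of 14 G1 cyclins and inhibitors 4 rose and 4 fell: Ccnd3 and Cdk4 were among the higher, and Ccnd1, Rb1 and Rbl2 among the lower (2 fell without 1 h or 12 h). Ccnd3 (cyclin D3) had 68.5, 71.8 and 48.6 CPM late, against 36.8, 33.1 and 38.1 CPM early. Rbl2 (the pocket protein p130) had 21.4, 19.4 and 26.5 CPM late, against 36.9, 37.7 and 34.3 CPM early. Myc, a driver of growth genes, did not pass, with 569, 446 and 513 CPM late, against 500.2, 447 and 572 CPM early. In a list of 34 genes of the Myc network and ribosome biogenesis, Myc included, 16 rose and 0 fell (median 0.39), and without 48 h 27 rose. Among 43 cytosolic ribosomal proteins 2 rose and 14 fell, with a median of -0.13. The rises were 0 without 30 min and 1 without 15 min, 1 h or 24 h. The falls were 6 without 15 min, 7 without 30 min, 7 without 1 h, 9 without 12 h, and 29 when scaled by library totals alone. Ribosomal protein genes share reads with many pseudogenes, so single members are uncertain.

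Among energy genes, 11 of 19 glycolysis genes rose and 4 fell (median 0.75). Ldha, lactate dehydrogenase, had 1188, 1564 and 1207 CPM late, against 563, 482 and 542 CPM early, a log2 fold change of 1.31 ± 0.12 (SE; edgeR adjusted p = 0.00072). Tpi1, triose phosphate isomerase, had 460.5, 565 and 532 CPM late, against 234, 203 and 230.0 CPM early. The sides did not overlap in either, like nearly all genes that passed. The 4 that fell were the glucose transporters Slc2a1 and Slc2a3, the platelet-type phosphofructokinase Pfkp and the neuronal enolase Eno2. Slc2a1 had 76.6, 75.5 and 59.6 CPM late, against 87.4, 106 and 132 CPM early. The count of 4 was 2 without 15 min, 30 min, 12 h or 24 h. Of 39 nuclear-encoded respiratory chain genes 32 rose and 0 fell (median 0.38), and without 30 min 17 rose. Of 17 hypoxia genes 4 rose and 2 fell (7 fell without 48 h, and 5 with lane as a term). Of 18 genes of fatty acid oxidation 2 rose (1 without 15 min, 30 min or 1 h) and 3 fell (5 without 48 h).

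Most genes of the proteasome and of the heat shock chaperones rose. Of 30 proteasome subunits 27 rose and 0 fell (median 0.73), and the count held at 26 to 28 when any 1 library was left out. Psmd13, a subunit of the regulatory lid, had 141, 169 and 119 CPM late, against 67.5, 54.0 and 61.6 CPM early, a log2 fold change of 1.22 ± 0.14 (SE; edgeR adjusted p = 0.000988). Of 14 heat shock chaperones 10 rose and 1, the HSP40 gene Dnajb1, fell. The chaperone list peaked before the late window, with medians of 1.08 at 3 h and 1.17 at 6 h, against 0.84 at 12 h, 0.84 at 24 h and 0.30 at 48 h. Hspd1, the mitochondrial chaperonin, had 2022, 2123 and 1506 CPM late, against 1043, 946 and 1105 CPM early. Of 26 genes of the unfolded protein response 9 rose and 5 fell (median 0.19). Without 30 min 5 rose, and without 48 h 14 rose. The fallen count of 5 was 2 without 15 min, 1 without 30 min, 1 without 1 h, 1 without 12 h and 2 without 24 h. Sdf2l1, an endoplasmic reticulum chaperone partner, had 101, 136 and 75.6 CPM late, against 40.5, 29.8 and 40.0 CPM early. Dnajb9, a co-chaperone of the same compartment, had 18.3, 22.2 and 34.8 CPM late, against 62.5, 57.1 and 52.2 CPM early. Among 24 genes of oxidative stress 10 rose and 2 fell (1 without 24 h or with lane as a term), and among 8 of iron uptake and storage 4 rose. Tfrc, the transferrin receptor, had 1476, 1626 and 1117 CPM late, against 638, 530.4 and 599 CPM early, a log2 fold change of 1.25 ± 0.14 (SE; edgeR adjusted p = 0.00091).

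**Figure D2:**
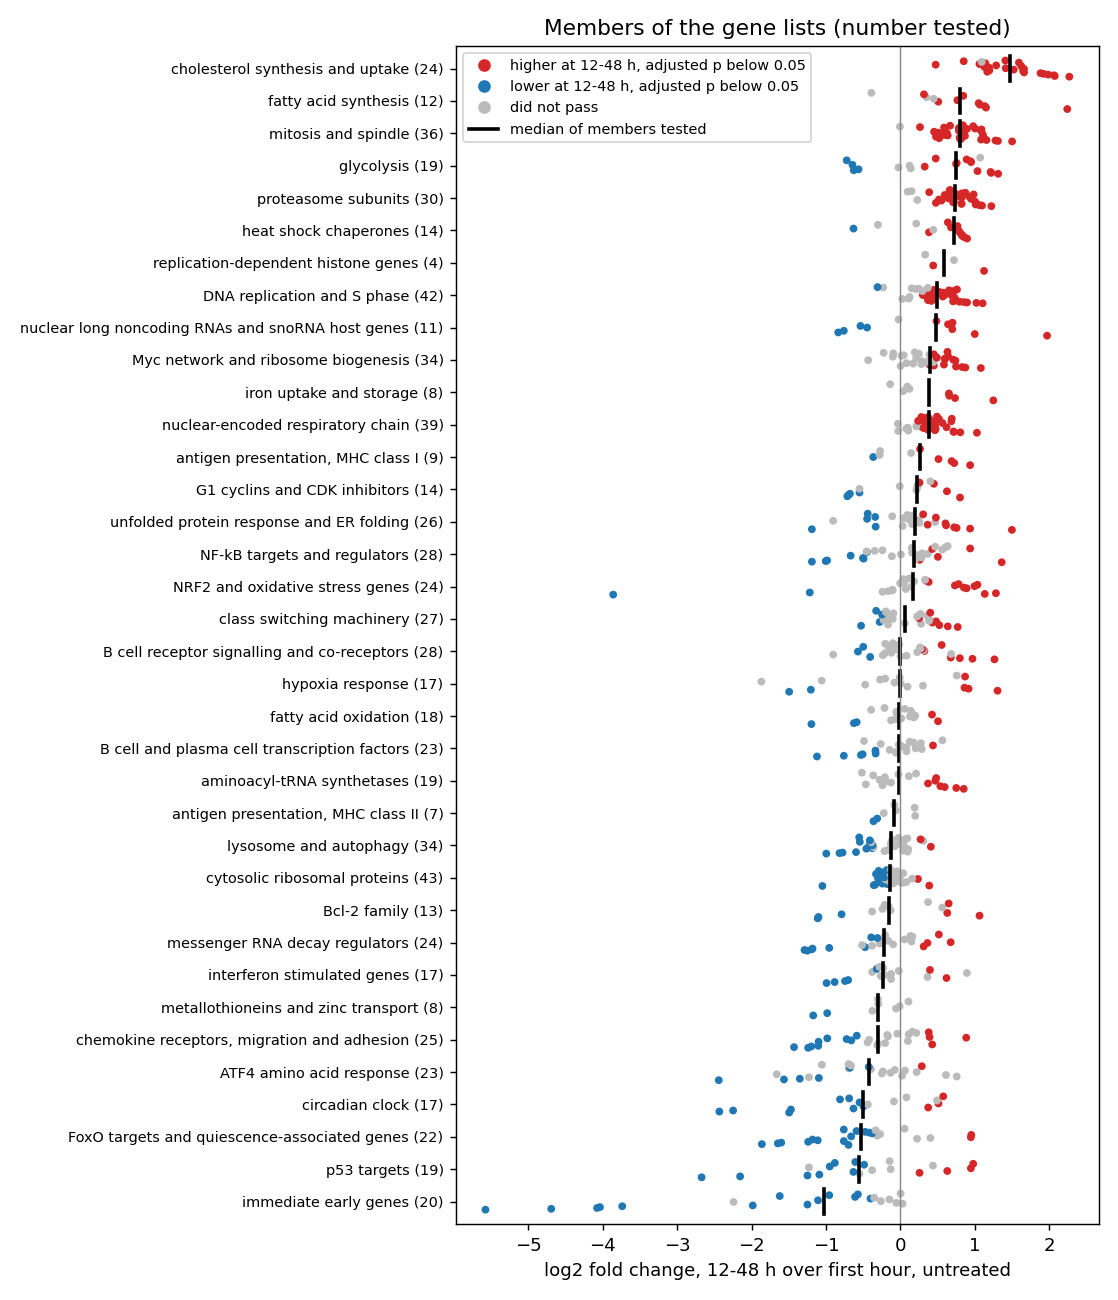
Log2 fold change at 12 to 48 h over the first hour of every tested member of the 36 gene lists, 1 point per gene, with a black bar at each list's median. Cholesterol synthesis, fatty acid synthesis, mitosis, glycolysis and proteasome lists have the highest medians (1.47, 0.81, 0.80, 0.75 and 0.73), and immediate early genes the lowest (-1.03).

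The largest falls were in immediate early genes. Of 20 tested members 13 fell and 0 rose, with a median of -1.03, and without 30 min 8 fell. Fosb, an AP-1 subunit (chr7:19302696-19310051, minus strand), had 1.09, 0.495 and 0.167 CPM at 12, 24 and 48 h, against 37.5, 30.5 and 14.0 CPM at 15 min, 30 min and 1 h. Its log2 fold change was -5.58 ± 0.60 (SE; edgeR adjusted p = 0.00089) and -6.41 without 12 h. Nr4a1, an orphan nuclear receptor induced by antigen receptor signals (chr15:101254269-101274795, plus strand), had 31.4, 16.5 and 5.51 CPM late, against 319, 339 and 209 CPM early. Its log2 fold change was -4.04 ± 0.59 (SE; edgeR adjusted p = 0.00238) and -4.72 without 12 h. Its relative Nr4a3 had 2.55, 1.71 and 0.391 CPM late, against 38.2, 47.2 and 32.5 CPM early. The 1 h library was the lowest of the first hour in all 3 genes. The sides did not overlap, which the rule that named them requires. Fos had 1.33, 0.765 and 0.112 CPM late, against 20.1, 12.4 and 3.92 CPM early. Its call was lost in lane 1 alone (edgeR adjusted p = 0.0933) and with no filter on low counts (edgeR adjusted p = 0.0675).

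These genes were highest at or near the start. The list's median was 0.42 at 0 min and -0.36 at 1 h relative to the first-hour mean, then -0.77 at 2 h, -0.73 at 12 h and -1.56 at 48 h. Fosb had 44.6 CPM at 0 min and Nr4a1 380.0 CPM. Junb had 87.8, 56.1 and 39.1 CPM late, against 261, 269.6 and 188 CPM early (log2 fold change -1.98 ± 0.28 SE, edgeR adjusted p = 0.00173), and its locus overlaps Prdx2 on the opposite strand, whose reads could not be told apart without a stated strand setting. Among the members that did not pass, Egr1 had 9.59, 10.9 and 1.02 CPM late, against 52.8, 34.4 and 13.1 CPM early (edgeR adjusted p = 0.0545), and Jund and Jun were near level. Of the other large falls, Dusp5, a phosphatase of nuclear ERK, had 8.17, 8.59 and 6.64 CPM late, against 51.4, 66.2 and 65.1 CPM early. Plk2, a polo-like kinase known as a p53 target, had 41.5, 58.9 and 49.7 CPM late, against 309, 373 and 271 CPM early, a log2 fold change of -2.67 ± 0.17 (SE; edgeR adjusted p = 0.000343). Osgin1 and Apold1 fell by 3.86 and 3.85 on the log2 scale, Fosl2 by 3.74, Ms4a4c by 3.10 (3.74 without 48 h), Mir22hg, the host of miR-22, by 2.95, and Cish, an inhibitor of cytokine receptor signals, by 2.81. Sik1, a salt-inducible kinase, had 91.6, 54.4 and 56.9 CPM late, against 254, 265 and 206 CPM early. Ankrd33b and Dnase1l3, a secreted DNase, fell by 1.83 and 1.67.

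**Figure D3:**
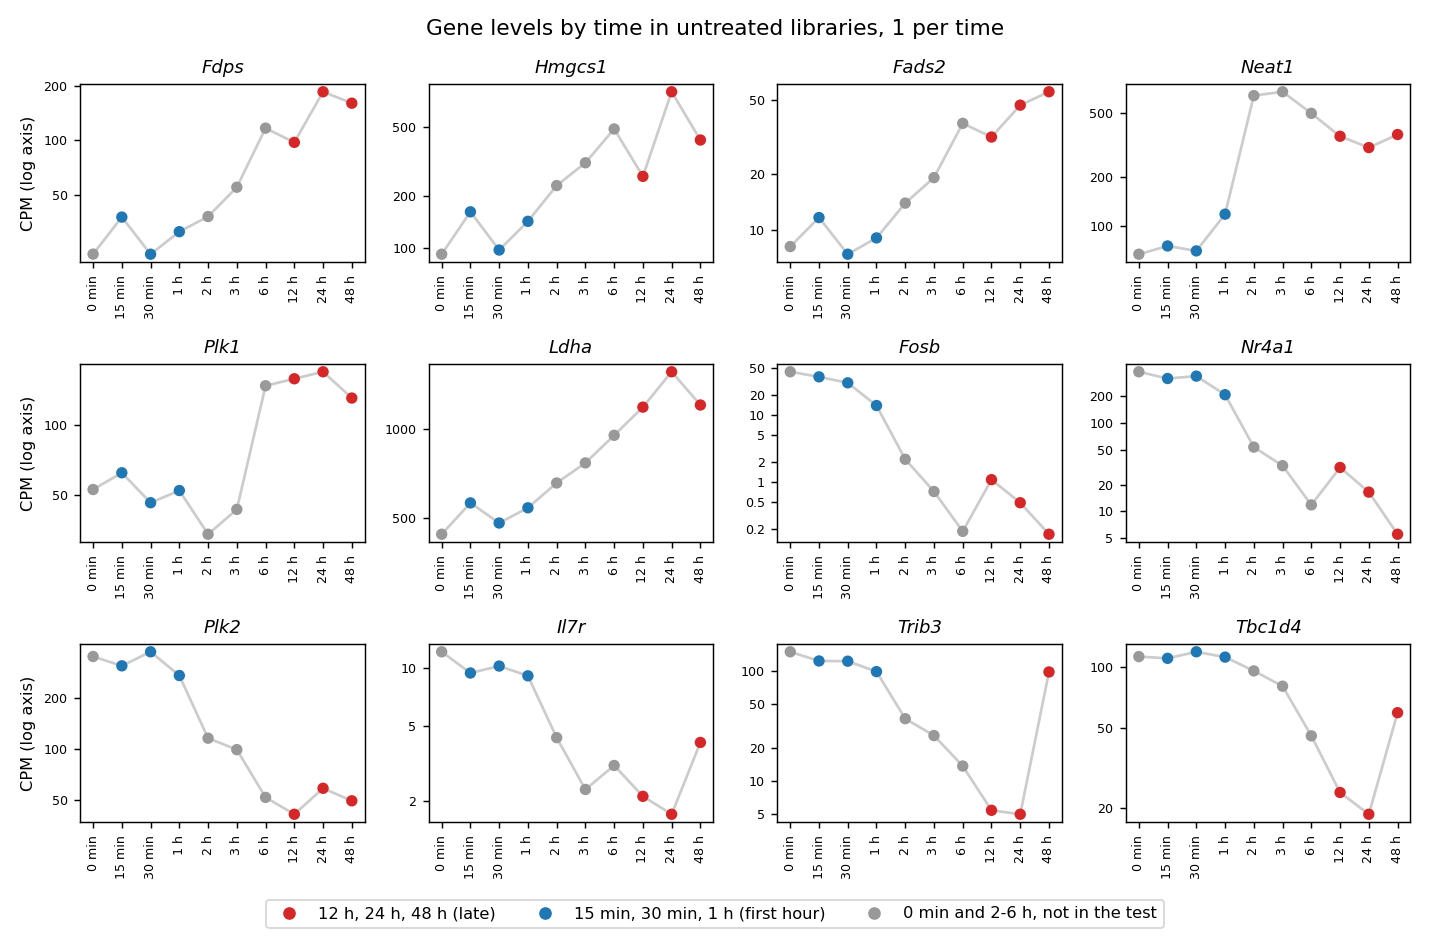
CPM of 12 genes in the 10 untreated libraries, 1 point per library on a log axis, with times evenly spaced and not to scale. Fdps, Hmgcs1, Fads2, Plk1 and Ldha are higher at 12 to 48 h than in the first hour and Neat1 peaks at 681 CPM at 3 h, while Fosb, Nr4a1, Plk2 and Il7r are lower and Trib3 and Tbc1d4 are at 5.02 and 18.7 CPM at 24 h and at 98.8 and 59.6 CPM at 48 h.

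Of the named rises outside these pathways, Neat1, the noncoding RNA that builds paraspeckles (chr19:5824708-5845478, minus strand), had 360.4, 307 and 369 CPM late, against 75.2, 70.1 and 118 CPM early, a log2 fold change of 1.97 ± 0.20 (SE; edgeR adjusted p = 0.000776). Its highest values lay between the sides, at 644 CPM at 2 h and 681 CPM at 3 h. In its list of nuclear noncoding RNAs and snoRNA hosts 6 of 11 rose and 4 fell. Snhg6 and Snhg12, hosts of small nucleolar RNAs, fell by 0.76 and 0.84. Pif1, a DNA helicase, had 37.2, 34.3 and 25.2 CPM late, against 10.3, 7.38 and 7.75 CPM early, and the endonuclease gene Ankle1 had 33.7, 23.8 and 19.0 CPM late, against 6.02, 4.86 and 6.41 CPM early. Ifrd1, a transcriptional co-regulator, had 152, 227 and 239 CPM late, against 81.5, 69.1 and 67.7 CPM early. In each of these the late libraries lay above all early ones, which the rule that named them requires.

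Genes associated with resting lymphocytes fell together. Of 22 tested FoxO targets and quiescence-associated genes, 14 fell and 2 rose (Sesn1 and Txnip, with 1 rise without 15 min, 30 min, 1 h or 12 h), with a median of -0.53. Il7r, the interleukin 7 receptor, had 2.12, 1.71 and 4.08 CPM late, against 9.44, 10.3 and 9.13 CPM early (log2 fold change -1.86 ± 0.31 SE, edgeR adjusted p = 0.0028). Ccr7, the chemokine receptor of lymph node entry, had 172, 134 and 173 CPM late, against 374, 376 and 377 CPM early. Btg1, an antiproliferative adaptor of mRNA deadenylation, had 48.7, 55.3 and 50 CPM late, against 113, 116 and 119.7 CPM early, and Foxo1 itself had 86.5, 81.5 and 98.0 CPM late, against 148, 151 and 150.1 CPM early. None of the 4 overlapped, like nearly all genes that passed. Among 17 clock genes 10 fell and 3 rose (1 without 15 min, 30 min, 1 h or 12 h, and 2 without 48 h). Nfil3, a repressor of D-box genes, had 15.0, 17.7 and 38.4 CPM late, against 111, 124 and 103 CPM early, and Bhlhe40, a repressor of the clock, had 163, 142 and 119 CPM late, against 374, 425 and 390.5 CPM early. Nr1d2 had 19.1, 15.8 and 20.3 CPM late, against 46.5, 53.7 and 52.4 CPM early. Of 19 p53 targets 9 fell and 4 rose, with a median of -0.55: Fas, the death receptor, had 4.31, 2.74 and 7.95 CPM late, against 22.8, 23.1 and 21.1 CPM early, and Bax and Gtse1 were among the higher. Of 34 genes of lysosome and autophagy 12 fell and 2 rose (1 without 15 min, 30 min or 1 h). Of 24 regulators of mRNA decay 8 fell and 4 rose (5 fell without 30 min, 13 with library totals only).

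The ATF4 genes are those in which the 48 h library went another way. Of 23 tested, 6 fell and 1 rose, but without 48 h 20 fell, and without 15 min, 30 min or 1 h 3 fell and 0 rose. Trib3, a pseudokinase that ATF4 induces, had 5.45, 5.02 and 98.8 CPM at 12, 24 and 48 h, against 124, 124 and 99.5 CPM at 15 min, 30 min and 1 h, and did not pass (edgeR adjusted p = 0.263). Cth, cystathionine gamma-lyase, had 39.1, 35.7 and 382 CPM late, against 316, 328 and 309 CPM early. Sesn2, an inhibitor of mTORC1, had 18.8, 21.8 and 124 CPM late, against 134, 134 and 119.6 CPM early. At 12 and 24 h these 3 lay below every early library. At 48 h Cth lay above its early range, Sesn2 within it and Trib3 just below it. Ddit3, the factor CHOP, had 6.07, 9.09 and 48.0 CPM late, against 14.3, 14.4 and 12.8 CPM early. Over the list the medians at 12 and 24 h were -1.12 and -0.93, and the 48 h median was 0.27. Of 19 aminoacyl-tRNA synthetases 7 rose and 0 fell, and without 48 h 7 rose and 10 fell. These genes were singled out after their values were seen.

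**Figure D4:**
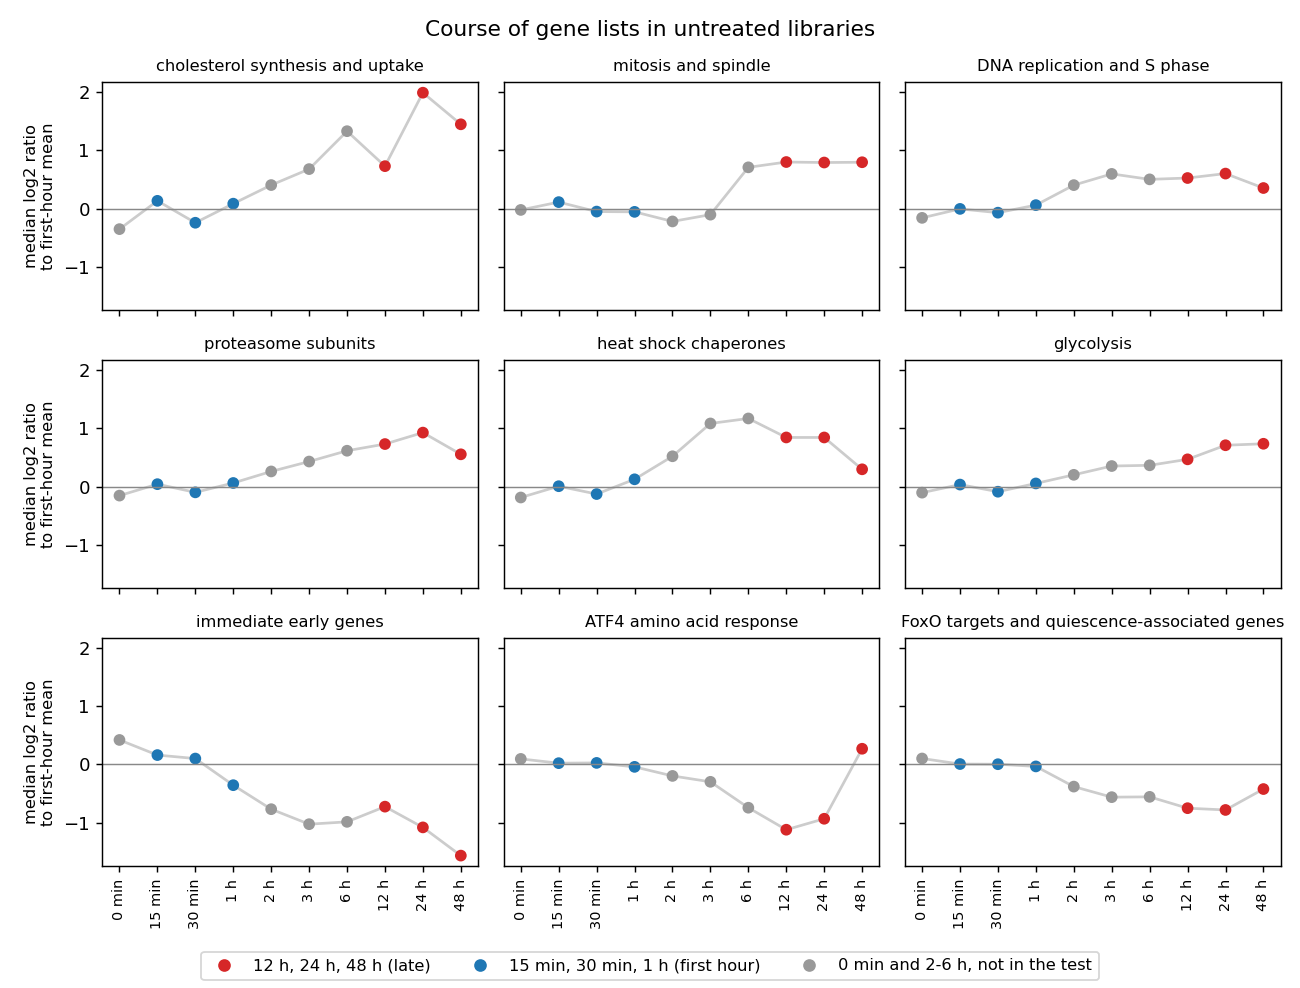
Median log2 ratio to the first-hour mean over the tested members of 9 gene lists in each untreated library, with times evenly spaced and not to scale. The mitosis list lies between -0.22 and 0.11 through 3 h and between 0.71 and 0.80 from 6 h, the chaperone list is highest at 6 h (1.17), and the ATF4 list lies at -1.12 at 12 h and at 0.27 at 48 h.

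Of 11 tested B cell markers 2 fell, Cd79a and Ebf1, and 0 rose (1 without 12 h or 48 h). The values of Cd79a are given above, and Ebf1, a B lineage transcription factor, had 125, 113 and 125 CPM late, against 177, 173 and 172 CPM early. Cd22, an inhibitory co-receptor, had 158, 237 and 449.8 CPM late, against 494, 567 and 518 CPM early, all 3 late libraries lower, and did not pass (edgeR adjusted p = 0.0526). Of 23 B cell and plasma cell transcription factors 6 fell and 1 rose (3 without 48 h, 0 without 15 min or 30 min, 2 without 12 h). Among 28 genes of B cell receptor signalling 7 rose and 3 fell (10 rose and 8 fell without 48 h). Ptpn6, the phosphatase SHP-1, had 489, 519 and 326 CPM late, against 198, 167 and 188 CPM early, and Btk, a kinase of the receptor, had 168, 176 and 137 CPM late, against 100.1, 87.3 and 87.8 CPM early. In the NF-kB list of 28 genes 5 rose and 7 fell, and the 5 were 3 without 15 min, 2 without 30 min, 2 without 1 h, 2 without 12 h and 11 without 48 h. Tnfaip3 (A20) had 143, 93.8 and 156 CPM late, against 58.4, 41.5 and 52.5 CPM early, and Rel (c-Rel) had 117, 127 and 71.0 CPM late, against 211, 263 and 239 CPM early. In the class switching list of 27 genes 7 rose and 4 fell (11 rose and 7 fell without 48 h, and 2 fell without 15 min, 30 min, 1 h or 24 h). The rises of the receptor and class switching lists were near the share over all genes tested (24.0% higher). So were the falls of the NF-kB and transcription factor lists (24.3% lower).

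Of the Bcl-2 family 3 of 13 rose and 3 fell (5 rose and 7 fell without 48 h), near the shares over all genes tested (24.0% higher and 24.3% lower). The pro-apoptotic Bid had 54.8, 52.4 and 42.4 CPM late, against 27.3, 22.5 and 21.4 CPM early. Bcl2l11 (Bim) had 122, 114 and 87.1 CPM late, against 224, 234 and 236 CPM early. Mcl1, a survival factor, had 507, 520.1 and 427 CPM late, against 805, 863 and 835 CPM early. Of 25 chemokine receptor and adhesion genes 4 rose (1 without 15 min, 30 min or 1 h) and 9 fell. Of 17 interferon stimulated genes 2 rose (0 without 15 min or 30 min, 1 without 12 h or 24 h, and 3 without 48 h) and 5 fell (3 to 6 when 1 library was left out). Of 9 class I presentation genes 5 rose and 1 fell (2 without 12 h or 48 h). Of 7 class II genes 2 fell (1 without 15 min, 30 min, 1 h or 24 h), and of 8 zinc genes 2 fell (1 without 30 min, 1 h or 48 h, and 1 with lane as a term). Of 38 replication-dependent histone genes 4 were tested and 2 rose (1 or 0 without any 1 library). Histone messages lack a poly-A tail, and 34 of the 38 stayed under 1 CPM in all 6 libraries.

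Markers of other cell types moved too, at low levels. The 15 macrophage genes summed to 25.6 to 39.2 CPM late, against 58.4 to 61.7 CPM early. All 4 tested fell, or 2 without any 1 of the early libraries: Emr1 (F4/80) had 1.16, 0.697 and 1.28 CPM late, against 7.54, 7.70 and 7.42 CPM early, and Itgam, Csf1r and Cd68 were the others, while 11 of the 15 stayed under 1 CPM and 6 were at 0 in all 6. The 14 T cell genes summed to 56.8 to 74.1 CPM late, against 58.4 to 63.0 CPM early, of which Cd5, also a gene of some B cells, made the larger part at 37.3 to 48.6 CPM late, against 39.3 to 43.4 CPM early. Stroma and endothelium genes summed to 5.74 to 8.32 CPM late, against 12.9 to 15.5 CPM early, with 3 of 3 tested lower (2 without 15 min, 30 min, 12 h or 24 h), and platelet genes to 11.6 to 29.0 CPM late, against 41.0 to 46.8 CPM early, nearly all from Itgb3. Dendritic cell genes summed to 59.4 to 66.9 CPM late, against 71.8 to 74.6 CPM early. The 8 NK cell genes summed to 6.50 to 10.0 CPM late, against 14.0 to 15.1 CPM early, nearly all from the perforin gene Prf1. Neutrophil sums were at most 0.279 CPM late, against 0.399 CPM early, erythroid sums at most 1.94 CPM late, against 1.68 CPM early, and mast cell sums at most 0.0757 CPM. Of 8 tested plasma cell genes 2 rose, Igj and Mzb1, and 1 fell, Xbp1. Mzb1 lost its call without 15 min, 30 min or 1 h and Xbp1 without 30 min, 1 h or 12 h, and without 48 h 3 plasma cell genes rose and 3 fell. The part of these cells or of these genes in the B lineage cells in the results above was not tested.

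The stimulated arm changed over the same times as well: 3177 of its 11536 genes (27.5%) were higher and 3040 (26.4%) lower at 12 to 48 h. Of the genes higher without treatment and tested in both arms, 2167 were also higher in the stimulated arm, which is 79.4% of the untreated and 69.6% of the stimulated list. Of those lower, 2008 were shared, 72.4% of the untreated and 66.6% of the stimulated list, while 34 of the higher and 41 of the lower went the opposite way with stimulation. The 2 arms hold different libraries. They also differ in animal, which cannot be told apart from treatment, and at each time they were run in different sequencing lanes. The difference of the 2 changes, untreated minus stimulated, passed for 610 of 11916 genes (5.12%), 332 higher (2.79%) and 278 lower (2.33%), in edgeR's quasi-likelihood test of the interaction. Both arms were sampled at the same times, and with time as a block 2179 genes passed (18.3%), 1119 higher (9.39%) and 1060 lower (8.9%), among them 608 of the 610.

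The genes of cholesterol synthesis, mitosis, the proteasome, the respiratory chain and ribosome biogenesis held 0 members past that test without the block, which does not show that they changed alike. With the block 7 of 24 cholesterol genes were lower in the difference and 0 higher, and 2 of 36 mitosis genes were higher and 1 lower. The proteasome, respiratory chain and ribosome biogenesis lists then each held 2 lower and 0 higher, and 11 of 19 glycolysis genes and 10 of 17 hypoxia genes were lower, against 1 and 2 without it. Fdps changed by 2.27 without treatment and by 2.77 with it, a difference of -0.49 (edgeR adjusted p = 0.568). Immediate early genes held 5 of 21 that were higher in the difference (7 with the block) and 0 lower: Zfp36, Btg2, Dusp1, Dusp2 and Ier2 fell less without treatment. Dusp2, a nuclear MAP kinase phosphatase, changed by -1.62 without treatment and by -3.11 with it. The median change of the immediate early list was -1.03 without treatment and -2.59 with it. The stimulated first-hour libraries followed the cocktail. A difference of changes does not tell whether the first-hour or the late level differed between the arms. The B cell receptor list held 6 of 28 higher (10 with the block), and the list of B cell transcription factors 5 of 23 (9 with the block). Cd22 changed by -0.90 without treatment and by -3.29 with it, a difference of 2.38 ± 0.54 (SE; edgeR adjusted p = 0.0271). Ccnd2 (cyclin D2) had 27.8, 28 and 52.2 CPM late without treatment, against 57.2, 58.6 and 61.0 CPM early, and 119, 165 and 178 CPM late with stimulation, against 65.5, 68.5 and 75.3 CPM early. Its fall without treatment (edgeR adjusted p = 0.0375) was lost without any 1 library other than 48 h, at adjusted p from 0.0805 to 0.122.

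Tbc1d4, a Rab GTPase-activating protein of glucose transport (chr14:101442360-101609191, minus strand), fell without treatment, to 23.9, 18.7 and 59.6 CPM late, against 111, 119 and 112 CPM early, and was at 193, 297 and 556 CPM late, against 128, 131 and 153 CPM early with stimulation. Fas had 40.6, 48.7 and 100.1 CPM late with stimulation, against 27.3, 25.3 and 25.3 CPM early, so that its change was of opposite sign in the arms. Pde2a, a phosphodiesterase of cyclic nucleotides, had 35.6, 42.9 and 20.4 CPM late without treatment, against 10.4, 6.96 and 7.86 CPM early, and 6.19, 3.32 and 1.83 CPM late with stimulation, against 6.70, 7.10 and 6.41 CPM early. Pou2f3, a POU domain factor, had 19.5, 17.9 and 7 CPM late without treatment, against 4.03, 2.08 and 2.68 CPM early, and 3.02, 1.57 and 0.535 CPM late with stimulation, against 2.90, 2.73 and 2.03 CPM early. Pou2f3 held the largest rise of the named genes without treatment, at a log2 fold change of 2.32 ± 0.40 (SE; edgeR adjusted p = 0.00335), and Pde2a rose by 1.96 ± 0.28 (SE; edgeR adjusted p = 0.00173). Neither was above its first-hour range at all 3 late times with stimulation.

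**Figure D5:**
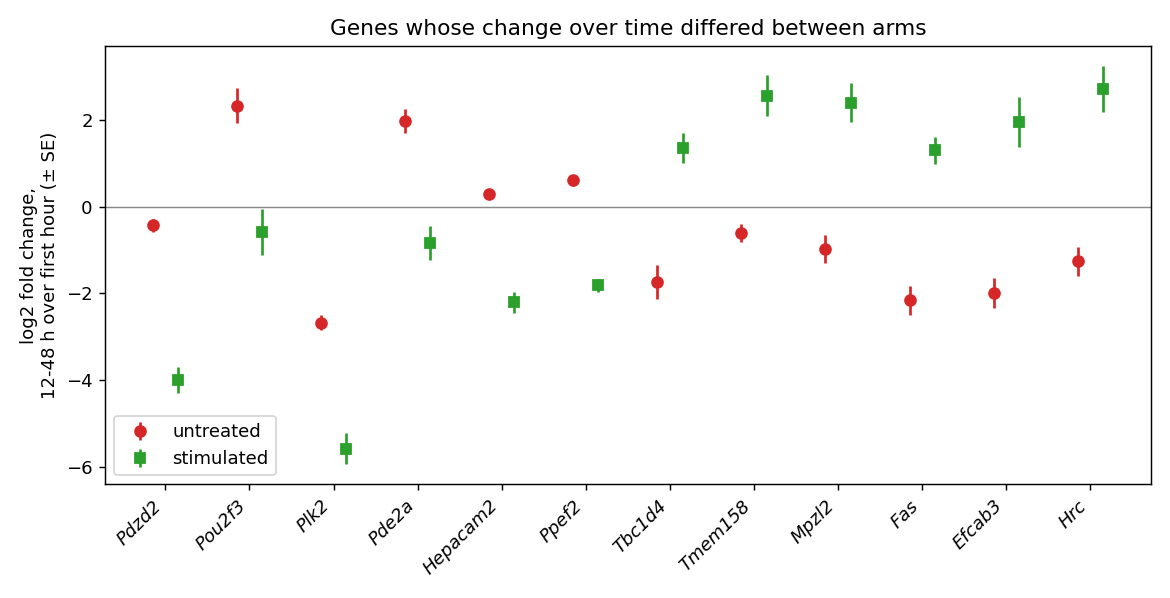
Log2 fold change at 12 to 48 h over the first hour, with its SE from the edgeR fit, for the 12 genes named for the difference between arms, untreated (circles) left of stimulated (squares), 3 libraries a side in each arm. Tbc1d4, Tmem158, Mpzl2, Fas, Efcab3 and Hrc lie below 0 untreated and above 0 stimulated, and Plk2 lies below 0 in both, at -2.67 and -5.57.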

How the data were processed

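Poly-A RNA libraries (TruSeq, per the labels' protocols) of the untreated samples were compared at 12, 24 and 48 h against 15 min, 30 min and 1 h. The deposited values are counts per gene for 41115 genes, for which the submitters' processing notes name STAR, HTSeq, GRCm38.p3 and mm10. Their versions and the strand setting are not stated there. Small RNA was not analysed here. A few genes of the lists are not reported here by name.

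The test, on the 6 libraries alone, was edgeR's quasi-likelihood test (version 4.0.16, R 4.3.3) after TMM scaling. It ran on genes reaching 1 CPM in 3 or more libraries, with p-values adjusted by Benjamini-Hochberg over all of them and a threshold of 0.05. The SE is the log2 fold change divided by the square root of F. The difference between arms was an interaction over 12 libraries. CPM are TMM-scaled over 20 libraries, and courses are log2(CPM + 0.5) minus the first-hour mean. Gene positions are from GENCODE vM21 (GRCm38), and promoter windows from RefSeq.

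Genes were named as the 12 largest log2 fold changes each way among genes past the test, without overlap of the sides and above 5 CPM, the 6 largest each way above 100 CPM, up to 4 members a list, and the 6 largest each way for the difference between arms. Unnamed gene models and immunoglobulin segments were left out. Other list members were picked after their values were seen. The comparison, the members and the lists were chosen with earlier results of these data known.

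Alternatives were RLE size factors, library totals, DESeq2 1.42.0, limma-voom (limma 3.58.1), no filter or 5 CPM in 3 libraries, lane as a term, lane 1 alone, the 0 min library added, fits over 10 or 20 libraries, and each library left out. Lane, and time as a block, in the difference between arms were added after seeing the data. Libraries of 1 time in the 2 arms deviated together from their group means, with r over the genes tested of 0.31 to 0.711 over the 6 times. Both fits were first run on simulated counts with few changed genes and independent replicates. In these data times stand in for replicates and 48.3% of genes passed, so the simulation does not check this design.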

Additional observations from a re-analysis of the deposited data

Results flagged for a closer look

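For 12 genes the change over time differed between the untreated and the stimulated arm by an interaction test in edgeR (adjusted p below 0.05), and the sizes below are untreated change minus stimulated change on the log2 scale. These are the 6 largest in each direction under the naming rule, and arm and animal cannot be told apart. At each time the arms were also run in different sequencing lanes.

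Higher in the difference were Pdzd2 (3.57), Pou2f3 (2.92), Plk2 (2.89), Pde2a (2.81), Hepacam2 (2.49) and Ppef2 (2.42). Pdzd2 changed by -0.43 untreated and by -4.00 stimulated. Hepacam2 and Ppef2 changed by 0.28 and 0.60 untreated, and by -2.20 and -1.82 stimulated. Pou2f3 lost its call in the difference under several settings, among them a fit without untreated 15 min (edgeR adjusted p = 0.058) and one without untreated 30 min (0.111).

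Lower in the difference were Hrc (-3.96), Efcab3 (-3.94), Fas (-3.45), Mpzl2 (-3.35), Tmem158 (-3.16) and Tbc1d4 (-3.10). Hrc and Efcab3 were near the limit of expression: Hrc had 1.72, 0.607 and 1.12 CPM late untreated, against 2.64, 2.69 and 2.87 CPM early. Without the stimulated 48 h library the difference was -3.11 for Hrc, -2.88 for Efcab3 and -2.53 for Tmem158, and without the untreated 48 h library it was -3.78 for Tbc1d4.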

How the results depend on the processing

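Late against early has no pairing, since each time has 1 library. The difference between arms can be paired by time: with time as a replicate block, a fit chosen after seeing the data, 2179 genes passed, 1119 higher and 1060 lower, and all 12 named genes kept their call. Under all alternatives run, 0 of the 168 named genes of late against early changed direction over 2828 refitted values, and 144 values missed the threshold. Of the 168, 137 kept their call in every setting that tested them. The refits reuse the libraries from which the genes were named, so a kept direction adds little. For the 12 genes of the difference between arms, 13 of 228 values missed the threshold and 0 changed direction, and 9 genes kept their call throughout. Leaving out 1 library at a time gave 3134 to 7112 genes past the test (higher 1566 to 3501, lower 1568 to 3611, over 2-fold 720 to 1472). With 2 libraries on a side, the fits have fewer residual degrees of freedom. Over 2-fold, 1773 genes passed with no filter, which tests more genes, and 616 with at least 5 CPM in 3 libraries, which tests fewer.

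In the difference between arms, DESeq2 called 1016 genes (512 higher and 504 lower), and 198 were higher in the fit of 20 libraries. Leaving out 1 library gave 367 to 861 (higher 193 to 541, lower 174 to 370). The cause was not tested. With lane as a term 6093 genes passed in late against early and 538 in the difference between arms. Values near the floor of 3 counts, such as those of Fosb and Fos at 48 h, are limited by depth.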
